A study of Mus musculus with 18 samples.

Results

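CpG methylation of unperturbed mouse embryonic stem cells (ESCs) was compared between day 3 and day 1 of a time course. The comparison was chosen by genotype and day alone, and it holds the 4 control libraries of these days, 2 per day, out of 18 libraries in the whole series. The series followed ESCs for 11 days after deletion of Dnmt1, with control and Dnmt1 KO cells sampled at days 1, 3, 6, 9 and 11. All 4 libraries were whole-genome bisulfite libraries of genomic DNA, in which a read that spans a CpG calls it methylated or unmethylated. The labels gave their genotype as Wildtype and E14, a mouse ESC line, as the background strain. The methods described floxed Dnmt1 ESCs of C57BL/6 origin kept in serum with LIF, on feeder cells or on gelatin, in which tamoxifen activates Cre. Whether the control cells were floxed cells without tamoxifen or another line, whether they received tamoxifen, and which of them grew on feeders is not stated in the labels or methods. Nothing said that the 2 libraries of a day came from separate cultures, so every spread between replicates may be technical.

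In mammals most CpGs carry methylation, which is copied to the new strand after each DNA replication by the maintenance enzyme DNMT1 with its partner UHRF1 and is set anew by DNMT3A and DNMT3B. CpG islands, the CpG-rich stretches found at many gene starts, are the main exception and stay free of it in most cells. ESCs grown in serum are known to be highly methylated and to renew this state at each division, so a control time course shows how much a methylome moves when maintenance is intact.

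The 4 libraries held 9382178, 10031839, 9213025 and 9198399 calls (day 1 replicates 1 and 2, then day 3 replicates 1 and 2), or 1.21 to 1.23 calls for each cytosine listed. Single CpGs were therefore not compared, and calls were summed over 100 kb tiles or over classes of CpGs. Day 1 replicate 2 stood apart in what it covered. CpGs in sparse sequence took 28.0% of its autosomal calls, against 31.9% to 32.5% in the other 3 libraries, and the mitochondrial genome took 0.339% of its calls, against 0.902% to 1.39% in the others. The overall level and the tile tests are therefore also given without this library. Mitochondrial DNA gave the background level, with 0.228% to 0.288% of its CpG calls methylated. The segment of Dnmt1 taken as deleted in the KO was exons 4 to 5 (chr9:20744920-20746027, NCBIM37, 20 CpGs), which the methods do not name. It had 18, 11, 2 and 4 calls in the 4 control libraries, so each of them held some reads of it. The Dnmt1 KO libraries had 0 and 2 calls there at day 1 and 0 and 0 at day 3. Calls as few as 2 thus do not set a control library apart from a Dnmt1 KO library. Too few calls fell there to say how much of it was present.

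Gene starts show the contrasts of this landscape most directly, and the 300 bases upstream of 4 of them are printed here to show starts that differ in CpG content and in level. Every CpG is in capitals, and all are from the NCBIM37 genome, 5′ to 3′ on the strand of the gene. Atp5b (ENSMUSG00000025393.5, chr10:127520029-127520328, + strand, 14 CpGs) encodes a subunit of the mitochondrial ATP synthase. Stk31 (ENSMUSG00000023403.8, chr6:49345303-49345602, + strand, 28 CpGs) is a gene of germ cells. Tdgf1 (ENSMUSG00000032494.8, chr9:110848663-110848962, - strand, 8 CpGs) encodes the NODAL co-receptor CRIPTO, which is used in ESCs. Meg3 (ENSMUSG00000021268.10, chr12:110778911-110779210, + strand, 11 CpGs) is an imprinted noncoding RNA.
Atp5b: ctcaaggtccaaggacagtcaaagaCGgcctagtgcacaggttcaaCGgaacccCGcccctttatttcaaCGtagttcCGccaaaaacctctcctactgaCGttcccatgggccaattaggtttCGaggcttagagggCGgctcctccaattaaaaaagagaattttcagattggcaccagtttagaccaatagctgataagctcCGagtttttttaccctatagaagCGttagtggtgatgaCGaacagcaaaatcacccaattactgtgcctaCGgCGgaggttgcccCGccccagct
Stk31: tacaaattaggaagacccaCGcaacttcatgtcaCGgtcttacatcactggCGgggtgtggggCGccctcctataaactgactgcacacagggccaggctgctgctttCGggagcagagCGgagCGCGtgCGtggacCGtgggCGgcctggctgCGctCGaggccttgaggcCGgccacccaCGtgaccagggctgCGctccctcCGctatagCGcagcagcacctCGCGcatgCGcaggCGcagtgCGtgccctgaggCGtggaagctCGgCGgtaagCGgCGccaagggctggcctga
Tdgf1: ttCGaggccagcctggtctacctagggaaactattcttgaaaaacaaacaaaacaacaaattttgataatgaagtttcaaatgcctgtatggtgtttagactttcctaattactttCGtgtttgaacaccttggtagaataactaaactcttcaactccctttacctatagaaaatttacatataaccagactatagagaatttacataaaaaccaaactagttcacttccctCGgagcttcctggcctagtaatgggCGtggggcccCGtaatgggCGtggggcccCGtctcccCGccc
Meg3: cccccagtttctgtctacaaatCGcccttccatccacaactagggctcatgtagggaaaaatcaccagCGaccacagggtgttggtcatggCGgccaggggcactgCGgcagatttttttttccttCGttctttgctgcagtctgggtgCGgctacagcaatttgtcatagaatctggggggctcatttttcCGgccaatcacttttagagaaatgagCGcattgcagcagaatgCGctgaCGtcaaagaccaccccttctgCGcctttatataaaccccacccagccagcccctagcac
Within 500 bp of its start, Atp5b had 2 of 55 and 0 of 53 methylated calls at day 1 and 0 of 46 and 0 of 58 at day 3. Stk31 had more CpGs than Atp5b in the printed stretch but fewer within 500 bp of the start (59 against 65). In that wider window Stk31 had 29 of 38 and 12 of 35 methylated calls at day 1 and 15 of 46 and 13 of 31 at day 3. The region around the first start was thus nearly free of methylation and that around the other partly methylated, at both days. In the printed stretch of Stk31 itself, 0 of 5 calls were methylated at day 1 and 15 of 40 at day 3, too few at day 1 for a comparison. Tdgf1, with the fewest CpGs upstream, had 0 of 26, 0 of 31, 1 of 47 and 3 of 34 methylated calls in the order of the libraries. Meg3 had 19 of 20, 25 of 25, 22 of 28 and 15 of 16. Tdgf1 and Meg3, the starts with fewer CpGs in either window (31 and 35 within 500 bp), were therefore found at either end of the range.

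The autosomal CpG methylation level did not move beyond the spread between replicates. It was 77.3% and 74.8% in the day 1 libraries and 75.6% and 75.5% in the day 3 libraries, so that both day 3 libraries lay between the replicates of day 1. The day means differed by -0.47 percentage points, and the 4 differences between single libraries of the days ran from -1.80 to 0.857 points (exact permutation p = 1, two-sided; 2 libraries against 2 cannot go below 0.333). The difference was -1.76 points without day 1 replicate 2 and 0.815 points without day 1 replicate 1. Replicates were 2.57 points apart at day 1 and 0.0843 points apart at day 3. The libraries of the days also overlapped on each of 20 chromosomes (the autosomes and the X chromosome), where the difference of the means ran from -0.778 to -0.135 points. The day 1 replicates differed by 1.98 to 3.39 points on these chromosomes. On the Y chromosome, with 3943 to 4962 calls per library, the days did not overlap, at 67.57% and 67.61%, then 67.01% and 67.40%.

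The size of this small difference depended on the mix of CpGs that each library covered. When the level of each library was weighted to the density classes covered by day 1 replicate 1, the libraries of day 1 stood at 77.3% and 75.4% and those of day 3 at 75.3% and 75.3%. The difference of the means was then -1.07 points, and the day 3 libraries lay just below both of day 1 (exact permutation p = 0.333, the smallest this design allows). Most of that difference was to day 1 replicate 1, since day 1 replicate 2 lay close to the day 3 libraries.

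Local CpG density separated CpGs far more than the day did. CpGs were classed by how many CpGs, itself among them, lay up to 250 bp away on each side. Where fewer than 5 CpGs lay in this span, as at 32.2% of autosomal CpGs, the level was 82.5% and 80.6% at day 1 and 80.1% and 80.1% at day 3. Where 40 or more lay there, as at 3.63% of CpGs, it was 1.95% and 1.86% at day 1 and 1.81% and 1.63% at day 3. The level of this class was low at both days but stood above the mitochondrial background in each library. Between these ends the level passed from 72.9% and 69.5% (15 to 19 CpGs) to 42.6% and 42.3% (20 to 24 CpGs) at day 1, and from 71.5% and 71.3% to 42.6% and 41.4% at day 3. The step between these neighbouring classes was thus in the same place at both days. Day 3 minus day 1 was -1.49 points in the sparsest class, -1.13 points at 5 to 9 CpGs, -0.848 points at 10 to 14 and 0.204 points at 15 to 19. The sign of this last class did not hold: it was -0.953 points without the 2237 cytosines that had over 20 calls in a control library, where the class stood at 65.3% and 63.9%, then 63.8% and 63.4%, and also below 0 with CpGs counted within 100 or 500 bp (-0.292 and -1.13 points). In the 4 denser classes it ran from -0.536 to -0.184 points. The libraries of the days did not overlap in 4 of the 8 classes (under 5, 5 to 9, 25 to 29 and 40 or more), with the lower level at day 3 each time. Of single 100 kb tiles, 33.5% did not overlap between the days, and the classes all come from the same 4 libraries. In the 3 sparsest classes most of the difference was to day 1 replicate 1, since day 1 replicate 2 lay closer to both day 3 libraries.

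**Figure D1:**
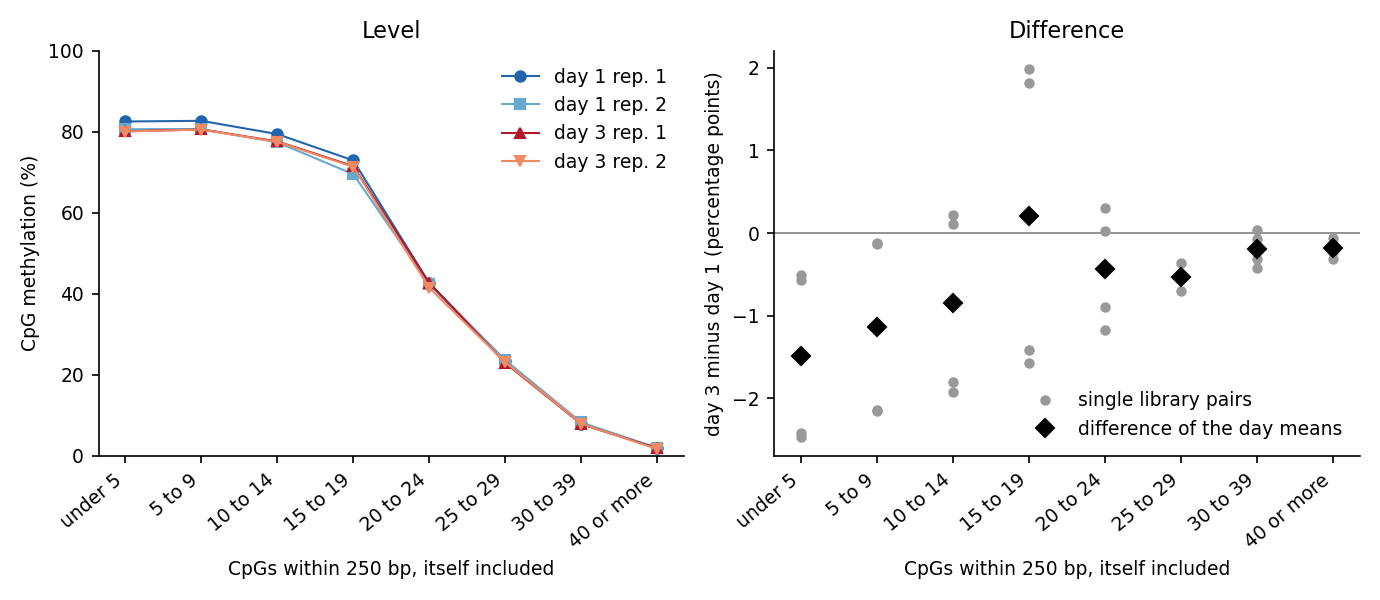
CpG methylation (%) of the 4 control libraries by the number of CpGs within 250 bp (left), and day 3 minus day 1 in percentage points (right), with each pair of single libraries as a grey point and the difference of the day means as a black diamond. The 4 curves fall together from above 80% to below 2%, and the differences between single libraries lie between -2.47 and 1.98 points.

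The mean level was higher at day 3 in promoters and exons and lower in introns and intergenic sequence, but the libraries of the days overlapped in all 4. In promoters (1 kb upstream of protein-coding starts) the level was 34.7% and 30.5% at day 1 and 33.9% and 33.5% at day 3, a difference of 1.08 points. In exons it was 71.0% and 67.01%, then 70.3% and 70.1%, a difference of 1.16 points. The positive sign of both rested on day 1 replicate 2, which was low in each. This library also had the largest share of its promoter calls in CpG-dense sequence (25 or more CpGs), with 41.5% against 37.6% to 38.4% in the other 3. With density weighted as above, the differences were -0.345 points in promoters and -0.277 points in exons, and the days still overlapped. The levels of all 4 features, weighted or not, include the 2237 cytosines with many calls that were left out of a density class above. Whether the signs hold without these cytosines was not tested. At 15 to 19 CpGs, exons stood at 81.3% and 78.0% at day 1, against 68.9% and 66.0% in introns. Introns were at 78.8% and 76.7%, then 77.1% and 77.0%, and intergenic sequence at 80.5% and 78.2%, then 78.4% and 78.3%. These differed by -0.725 and -1.04 points, and by -1.12 and -1.28 points with density weighted, where the libraries of the days no longer overlapped.

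A dip at CpG-dense gene starts was present at both days. Of 21418 protein-coding starts on autosomes, 12243 were CpG-dense, meaning that a CpG within 500 bp had 25 or more CpGs around it. In the first 250 bp downstream of these starts the level was 2.50% and 2.49% at day 1 and 2.48% and 2.22% at day 3. It rose with distance on both sides, to 43.1% and 40.3% at 750 to 1000 bp upstream at day 1 and 41.1% and 40.6% at day 3. The other starts had no such trough, with 82.5% and 80.2%, then 81.5% and 81.7%, in the first 250 bp downstream. The level of the other starts just upstream, in the last 250 bp before the start, was lower, at 72.0% and 68.1% at day 1 and 70.7% and 70.5% at day 3. Over the 80 bins of 250 bp within 10 kb, the difference of the day means ran from -2.99 to 0.536 points around CpG-dense starts, where the libraries of the days overlapped in 49 bins. It ran from -2.99 to 1.64 points around the other starts, where they overlapped in 65 bins. Among single 100 kb tiles, 33.5% did not overlap between the days.

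**Figure D2:**
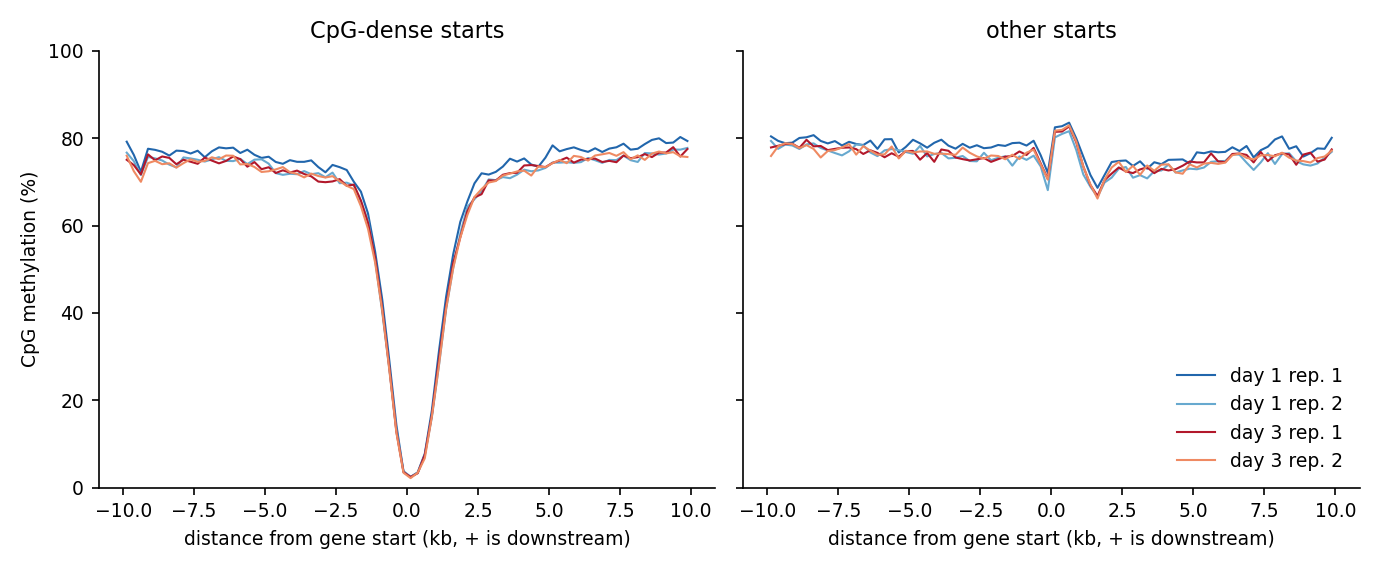
CpG methylation (%) in bins of 250 bp against the distance from the gene start (kb), for CpG-dense starts (left) and other starts (right), with 1 line per control library. At CpG-dense starts all 4 libraries drop to between 2.22% and 2.50% just downstream of the start, and at the other starts they are between 80.2% and 82.5% there.

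At the scale of 100 kb, the genome was mostly highly methylated with a tail of low tiles. Of 25654 tiles with a CpG on the autosomes and the X chromosome, 23547 had at least 100 calls in each of the 9 control libraries and were compared. A tile had a median of 322 to 340 calls in the 4 libraries. The median tile stood at 81.5% and 79.3% at day 1 and 79.3% and 79.2% at day 3, and the libraries were similarly spread. Its 25th and 75th percentiles were 75.5% and 84.95% in day 1 replicate 1, 73.0% and 82.9% in day 1 replicate 2, 73.6% and 82.8% in day 3 replicate 1 and 73.5% and 82.7% in day 3 replicate 2. Only 0.773% and 1.17% of tiles were under 50% at day 1, and 0.939% and 1.13% at day 3. Day 1 replicate 1 was the library shifted upwards, with 59.1% of tiles at 80% or more against 44.97% to 45.9% in the other 3.

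**Figure D3:**
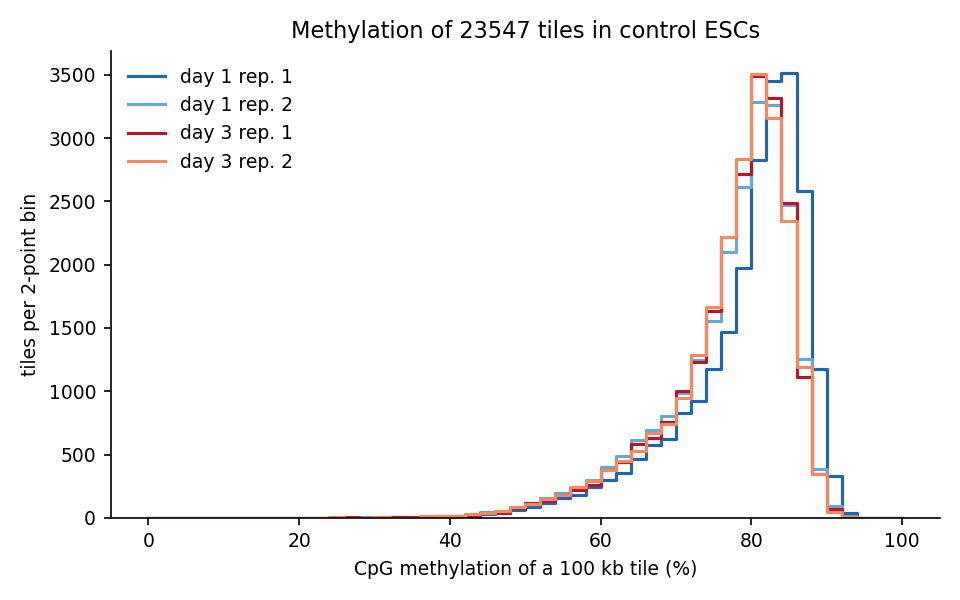
Number of 100 kb tiles per 2-point bin of CpG methylation (%), with 1 line for each of the 4 control libraries. Day 3 replicates 1 and 2 and day 1 replicate 2 follow each other, with medians of 79.2% to 79.3%, and day 1 replicate 1 is shifted to a median of 81.5%.

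No tile was called different at day 3. With a quasi-binomial test and Benjamini-Hochberg adjustment, 0 of 23547 tiles (0%) had an adjusted p under 0.05 with a difference of at least 5 points, and the lowest adjusted p was 0.346. At an unadjusted p under 0.05 there were 1344 tiles (5.71%), and limma on the levels called 0 tiles, with 1286 at an unadjusted p under 0.05. Without day 1 replicate 2, the quasi-binomial test again called 0 tiles, with 1945 at an unadjusted p under 0.05. The median difference was -1.01 points with all libraries, -0.061 points without day 1 replicate 1 and -2.16 points without day 1 replicate 2. With all libraries the 5th and 95th percentiles were -7.00 and 5.35 points, beside a median standard error of 3.46 points. A difference of a few points in a single tile was thus not detectable here. The libraries of the days did not overlap in 2371 tiles with the higher level at day 3 and in 5509 with the lower (33.5% of tiles in all). Measured relative to tiles of like level, which takes out the overall offset between libraries, limma again called 0 of 23547 tiles (0%), with 1326 at an unadjusted p under 0.05, a lowest adjusted p of 0.615 and a median difference of -0.04 points.

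Tiles differed between days by as much as they differed between replicates of a day. Across the tiles, the standard deviation (SD) of the difference was 5.43 points between the day 1 libraries and 5.30 points between the day 3 libraries. It was 5.28, 5.31, 5.47 and 5.48 points for the 4 pairs of libraries from different days, which lie on both sides of the value for day 1. Each was 1.55 to 1.61 times the SD that independent calls alone would give. Pearson's r of the levels, which describes tiles of shared libraries and is no test, was 0.7998 and 0.798 for the pairs within a day and 0.792 to 0.803 for the pairs between days. Measured relative to tiles of like level, between 68.0% and 69.7% of tiles lay within 5 points in every pair.

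Starting level did not set apart tiles that changed. Tiles were classed by 1 day 1 library and their change was measured from the other, in both ways, so that the error of the class did not enter the change. Tiles that began under 50% (182 by replicate 1, 275 by replicate 2) changed by 0.557 and -1.48 points, a mean of -0.46. Those that began at 80 to 90% (13545 and 10660 tiles) changed by 0.160 and -1.86 points, a mean of -0.85, and those at 90% or more (366 and 102 tiles) by 0.0951 and -2.76 points, a mean of -1.33. In every class the changes by the 2 ways had opposite signs, as the offset between the day 1 libraries enters them in opposite ways, and the means of the 6 classes ran from -1.33 to -0.455 points. When the class was taken from the same pooled day 1 libraries as the change, tiles under 50% went up by 1.15 points and tiles at 90% or more went down by 6.81 points. In that alternative the sampling error of the class enters the change by construction.

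**Figure D4:**
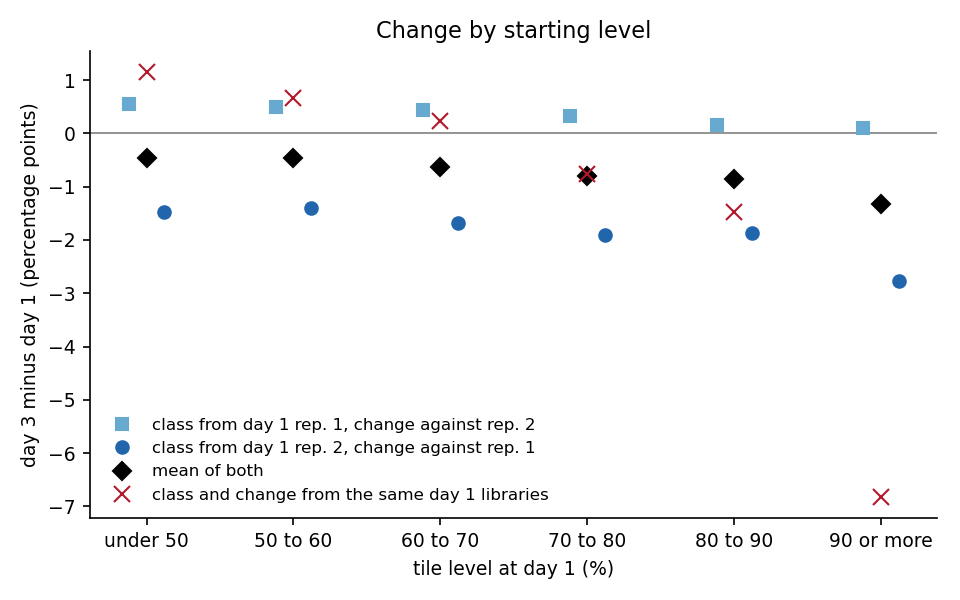
Day 3 minus day 1 (percentage points) by the tile's level at day 1 (%). Squares and circles take class and change from different day 1 libraries, diamonds are their means (-1.33 to -0.455 points), and crosses take both from the same libraries, which gives 1.15 points under 50% and -6.81 points at 90% or more.

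Low tiles were rich in CpGs and in genes, and stayed low at both days. The 1202 tiles under 60% in the 5 control libraries of days 6, 9 and 11 had a median of 14.2 CpGs per kb and 3.66 protein-coding starts on average, against 7.93 CpGs per kb and 0.905 starts over all tiles. They stood at 55.4% and 53.6% at day 1 and at 54.4% and 53.5% at day 3. The 1042 tiles at 85% or more in those libraries had 0.153 starts on average, and stood at 86.6% and 84.7%, then 84.6% and 84.8%. As a description over the 23547 tiles, Spearman's rho between level and the share of CpGs in CpG-dense sequence was -0.606 and -0.613 at day 1 and -0.588 and -0.587 at day 3. Over 5 equal groups of tiles by CpG density, the median change ran from -1.44 points in the sparsest to -0.779 points, and relative to tiles of like level from -0.23 to 0.11 points.

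The 10 tiles with the lowest level in the control libraries of days 6 to 11 showed which regions these were. Parts of all 4 Hox clusters, whose genes pattern the body axis, were among them. The HoxA tile (chr6:52100001-52200000) stood at 24.2% and 21.5% at day 1 and 23.2% and 26.3% at day 3. The HoxD tile (chr2:74500001-74600000) was at 34.2% and 25.6%, then 26.9% and 29.6%. The HoxB tile (chr11:96100001-96200000) was at 31.5% and 28.0%, then 34.9% and 30.3%, and the HoxC tile (chr15:102800001-102900000) was at 33.8% and 28.7%, then 32.8% and 38.1%. In each Hox tile the days overlapped, as in 7 of the 10 tiles, while 33.5% of all tiles did not overlap. Histone genes of the Hist1 cluster, which supply core and linker histones in S phase, lay in a pair of these tiles. The first (chr13:23600001-23700000) was at 22.5% and 23.3%, then 24.7% and 25.3%, and the other (chr13:21800001-21900000) at 34.6% and 28.7%, then 33.5% and 24.9%. The days did not overlap in the first of these, nor in a tile without coding genes (chr3:5800001-5900000) at 18.7% and 19.6%, then 24.5% and 20.02%, and a tile of Txndc11, Zc3h7a and Rsl1d1 (chr16:11100001-11200000) at 24.3% and 25.4%, then 30.4% and 25.9%. All 3 were higher at day 3. The chr3 tile held 701 to 1024 calls per library over 532 CpGs, and the chr16 tile 1275 to 1663 over 1112 CpGs. Both were thus read more often per CpG than the HoxA tile, with 962 to 1631 calls over 2867 CpGs. The cause of this coverage was not tested. The lowest tile of all (chr17:39900001-40000000), in which the annotation has only the pseudogene AY036118, was at 6.05% and 5.70%, then 5.71% and 4.86%. It held 18471 to 25232 calls per library, far more than the median tile. Over the 10 tiles the change ran from -2.57 to 4.66 points and the lowest adjusted p of the quasi-binomial test was 0.925.

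The 10 tiles with the highest level were 88.0% to 88.8% methylated in the control libraries of days 6 to 11, and 0% to 5.91% of their CpGs lay in CpG-dense sequence. Examples were a tile within Esrrg (chr1:189900001-190000000), the gene of an orphan nuclear receptor, at 91.7% and 86.1% at day 1 and 89.9% and 86.3% at day 3. A tile within Erg (chr16:95600001-95700000), the gene of an ETS factor of blood and vessel cells, was at 89.6% and 82.8%, then 85.8% and 87.5%. In this tile the replicates of each day were farther apart than the day means. The change over the 10 tiles ran from -2.74 to 3.47 points, and 9 of them overlapped between the days, beside the 33.5% of all tiles that did not.

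Among tiles with a low p, 5 are described here, 2 that were higher at day 3 and 3 that were lower. They were chosen after their values were seen, and none passed the adjusted threshold. The tile of Eif2s3x, which encodes a subunit of a translation initiation factor, and Klhl15 (chrX:91400001-91500000) was at 37.8% and 39.02% at day 1 and 59.5% and 58.5% at day 3. Here the day 1 libraries were the ones apart, since later control libraries were at 47.4% to 61.3% (adjusted p = 0.660 by the quasi-binomial test). The tile of 1600027N09Rik, Ogfr, Col9a3, Tcfl5 and Dido1 (chr2:180300001-180400000) was at 53.5% and 52.4%, then 67.9% and 72.3% (adjusted p = 0.583). Its later control libraries were at 57.01% to 69.6%, between the days or within the range of day 3.

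Among the falls, the tile of Ulk2, a kinase of autophagy, and Akap10, an anchor of protein kinase A (chr11:61600001-61700000), was at 74.5% and 79.5% at day 1 and 60.8% and 59.1% at day 3 (-17.22 ± 3.16 points). The day 3 libraries were below the 5 later control libraries, at 66.99% to 77.5%. The tile of Tob1 and Wfikkn2 (chr11:94000001-94100000) was at 68.1% and 69.6%, then 55.6% and 57.7%. Its later control libraries were at 69.2% to 70.1% on days 6 and 9 and at 57.1% and 52.8% on day 11, as low as on day 3. The tile of Spo11, which cuts DNA in meiosis, Rae1 and Rbm38 (chr2:172800001-172900000) was at 71.6% and 73.0%, then 53.8% and 63.3%, and its replicates at day 3 were far apart. There the later control libraries were at 75.5% on day 6, at 61.9% and 61.5% on day 9 and at 56.4% and 56.4% on day 11. All 3 had an adjusted p of 0.660.

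**Figure D5:**
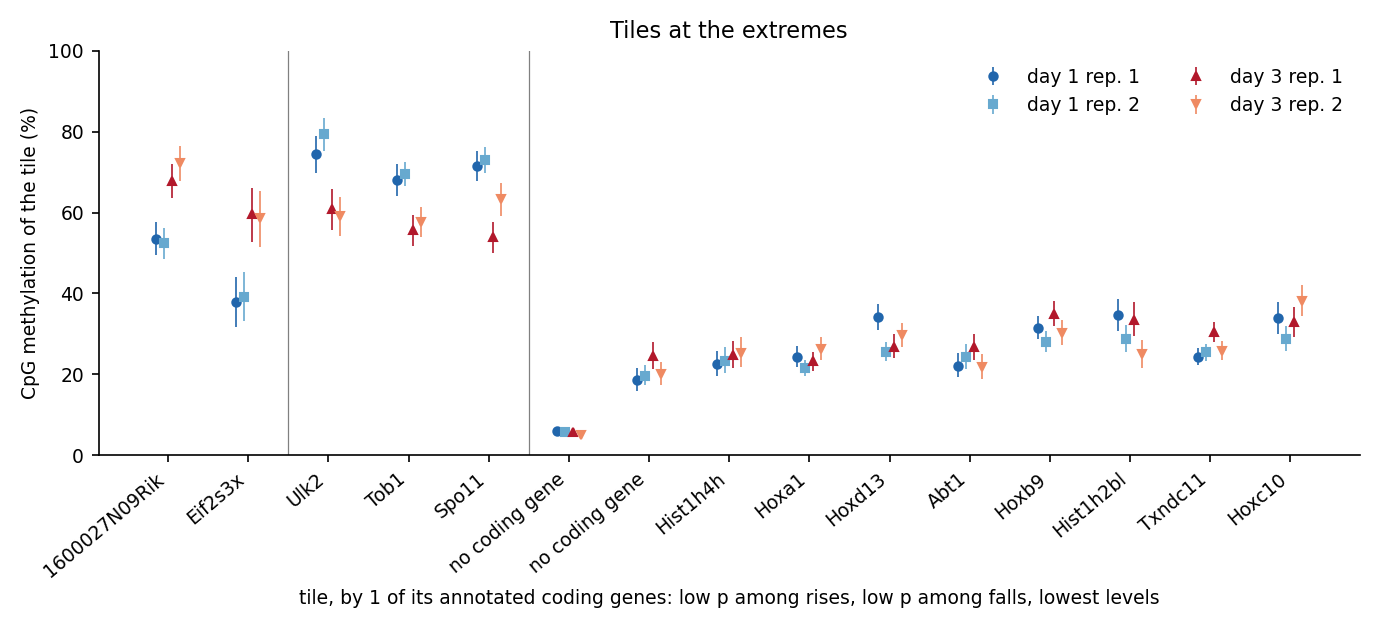
CpG methylation (%) in the 4 control libraries, with 95% Clopper-Pearson intervals, of 2 of the tiles with the lowest p among rises, the 3 with the lowest p among falls and the 10 with the lowest level at later days, each named by 1 of its genes. In the first 5 the day 3 libraries lie apart from the day 1 libraries, but none passed the adjusted test, and the 10 low tiles lie between 4.86% and 38.1% at both days.

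Each of 8 gene families was read over the tiles that hold a start of a member. As over all tiles (0%), none of these was called. Tiles of olfactory receptors (313 tested), the odorant receptors of the nose, had a median change of -1.29 points, and tiles of vomeronasal receptors (151 tested), which detect pheromones, of -1.72 points, beside -1.01 points over all tiles. Tiles of zinc finger proteins (371 genes over 275 tiles, 268 tested), some of which bind retroelements, were at 66.9% and 65.5% at day 1 and 65.0% and 64.5% at day 3. The median was -1.56 points. Tiles of clustered protocadherins (6 tested), the adhesion proteins of neurons, were at 59.8% and 57.7%, then 56.7% and 53.6%. Of the 8 families this one had the median farthest from 0, at -3.20 points. Tiles of the Hox clusters (9 tested) were at 41.7% and 35.8%, then 38.6% and 41.3%, and tiles of clustered histones (11 tested) at 46.4% and 46.4%, then 48.6% and 46.9%. Their median changes were 0.61 and -0.0247 points. Tiles of beta-defensins (13 tested), which encode antimicrobial peptides, and of serpins (34 tested), mostly protease inhibitors, had median changes of -1.41 and -1.10 points. At an unadjusted p under 0.05, which 5.71% of all tiles passed, were 10.8% of the zinc finger tiles (7 higher at day 3 and 22 lower), 5.96% of the vomeronasal tiles (1 and 8) and 4.15% of the olfactory tiles (5 and 8). The smaller families had 1 higher and 1 lower tile among the Hox tiles (22.2%), 1 lower among the protocadherin tiles (16.7%), 1 lower among the serpin tiles (2.94%) and 0 among the histone and beta-defensin tiles. The summed levels of the days did not overlap in 4 of the 8 families, beside 33.5% of all single tiles. Zinc finger proteins, protocadherins and beta-defensins were lower at day 3. The summed level of the histone tiles was higher, while their median change was close to 0.

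Most starts of genes used in every cell or in ESCs were low at both days. Calls within 500 bp of each annotated start were summed over lists of genes. Over the 19 housekeeping starts, 2.21% and 1.77% of calls were methylated at day 1 and 3.75% and 1.67% at day 3. Of the 16 with at least 10 calls at each day, 14 were under 10% at both. Eef2, the ribosomal elongation factor, had 0 of 51 methylated calls at day 1 and 0 of 102 at day 3, which allows up to 5.88% and 2.94%. Sdha, of the respiratory chain, had 1 of 209 and 1 of 42.

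Over the 21 pluripotency starts the level was 3.73% and 7.10% at day 1 and 4.51% and 4.56% at day 3, and 11 of the 15 with enough calls were under 10% at both days. Tbx3, a T-box factor of self-renewal, had 1 of 93 methylated calls at day 1 and 0 of 68 at day 3. Tfcp2l1, a factor of naive pluripotency, had 4 of 51 and 0 of 77. Prdm14, a regulator of naive pluripotency, was higher, with 13 of 21 and 6 of 17, as was Dppa3 at day 1, a maternal factor also named Stella, with 6 of 13 and then 2 of 23. Esrrb, an orphan nuclear receptor, had only 2 of 2 and 4 of 5, from 1 library at each day; these 3 were picked out by their values. These are methylation values at the starts and do not measure expression. The 21 developmental starts matched, of genes many of which are silent or poised in ESCs, were low as well, at 8.19% and 4.50%, then 9.09% and 6.74%. Both day 3 libraries and day 1 replicate 1 were above those of the pluripotency starts, and day 1 replicate 2 was below. T (Brachyury), which drives mesoderm, had 0 of 32 methylated calls at day 1 and 0 of 76 at day 3, Eomes, of endoderm and trophoblast, had 1 of 80 and 0 of 54, and Cdx2, a trophoblast factor, had 1 of 41 and 1 of 44. Of the 14 with enough calls, 10 were under 10% at both days. Hand1, a factor of heart and trophoblast, was higher, with 7 of 14 and 20 of 44. Gata4, with too few calls at day 1, had 1 of 1 and 17 of 18. Both were picked out by their values, and most methylated calls of this list at day 3 came from them.

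Most starts of the methylation machinery were low, at 10.5% and 8.81% at day 1 and 7.30% and 4.25% at day 3 over 14 genes. Mbd3 and Mbd2, of the family of methyl-CpG-binding proteins, had 2 of 54 and 4 of 40 methylated calls at day 1 and 3 of 115 and 3 of 67 at day 3. Uhrf1, which recruits DNMT1 to hemimethylated DNA, had 2 of 67 and 0 of 25. Of the 12 genes with enough calls, 8 were under 10% at both days and 1 was over 50% at both. The latter was Dnmt3l, a cofactor of de novo methylation, with 15 of 15 and 8 of 13, and Tet1, which oxidises methylcytosine, had 15 of 27 and 3 of 17; both were named after their values were seen. In this list the day 3 libraries were both below those of day 1, but all 12 had 95% intervals that overlapped between the days.

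Germline starts were the CpG-dense set with high methylation. All 22 were CpG-dense, and together they stood at 57.5% and 48.7% at day 1 and 58.3% and 49.6% at day 3. None of the 20 with at least 10 calls at each day was under 10% at both, and 7 were over 50% at both. Hormad1, a protein of the meiotic chromosome axis, had 20 of 27 methylated calls at day 1 and 45 of 55 at day 3. Rpl10l, a ribosomal protein gene of the testis, had 11 of 48 and 21 of 52. The sum over the list was alike at both days while single genes varied between libraries of the same day, as for Stk31 above. The 95% intervals of the days, which are too narrow because calls of a read are not independent, overlapped in 17 of the 20, against all 15 pluripotency, 16 housekeeping and 14 developmental starts with enough calls. The other 3, picked out by their values, differed in either direction. Mael had 9 of 11 methylated calls at day 1 and 3 of 31 at day 3, Tex19.1 had 24 of 28 and 3 of 11, and Tex11 had 12 of 34 and 26 of 29. The calls of Mael at day 1 came from replicate 1 alone, and those of Tex19.1 at day 3 from replicate 2 alone. The day 1 replicates of Tex11 were far apart, at 8 of 29 and 4 of 5, beside 19 of 21 and 7 of 8 at day 3.

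Starts of imprinted genes varied widely between libraries of the same day. In a maternally imprinted stretch 1 parental copy is methylated and the other is not, so that calls from a few reads can all be of either kind. Calls were read around annotated starts, which need not lie in the imprinted stretch. Snrpn and Mest had only 5 and 10 CpGs there. Over the 13 starts of maternally imprinted genes matched, 17.8% and 44.2% of calls were methylated at day 1 and 45.9% and 37.3% at day 3. Zrsr1 had 1 of 52 and 21 of 28 methylated calls at day 1 and 5 of 21 and 23 of 40 at day 3. Plagl1, a zinc finger growth regulator, had 0 of 20 and 0 of 22 at day 1 and 33 of 40 and 16 of 45 at day 3, and Gnas, of G-protein signalling, had 0 of 24 and 10 of 51, then 5 of 28 and 0 of 18. The 95% intervals of the days overlapped in 7 of the 9 with enough calls. They separated at Plagl1 and at Nap1l5, which had 3 of 37 and 21 of 29 and was named after its values were seen, but calls from the same read are not independent, so binomial intervals at single starts are too narrow. Of the starts of paternally imprinted genes, Meg3 was the 1 with enough calls at each day. H19, a noncoding growth regulator, had 8 of 8 and 0 of 0 methylated calls at day 1, then 7 of 18 and 11 of 18. Rasgrf1 had 0 of 17 and 0 of 37 at day 1 and no calls at day 3.

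The change from day 1 to day 3 in control was set against that in Dnmt1 KO over the same interval. Autosomal levels in Dnmt1 KO were 69.9% and 70.2% at day 1 and 33.4% and 34.6% at day 3, without overlap. The change differed between the genotypes in 23248 of 23274 tiles (99.9%; quasi-binomial test of the difference, adjusted p under 0.05 and at least 5 points), each time with the lower value in Dnmt1 KO and by a median of -37.22 points. In the other interval of 2 days with replicates, from day 9 to day 11, control libraries went from 77.7% and 76.0% to 71.4% and 71.5%, and 689 of 23547 tiles (2.93%) were called, all lower, with a median change of -4.70 points. The change from day 1 to day 3 was higher than that from day 9 to day 11 by a median of 3.71 points. No single tile passed the test of this difference (0 of 23547, 0%, quasi-binomial test), while 2878 had an unadjusted p under 0.05 and the lowest adjusted p was 0.0553.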

How the data were processed

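Whole-genome bisulfite libraries of control ESCs at days 1 and 3 were compared, with the other libraries of the series as context. Following their methods, the authors trimmed reads with Trim Galore, mapped them with Bismark to NCBIM37, deduplicated them and extracted CpG calls. The labels' processing notes give Bismark version 0.12.3, while the methods name another version. The deposited files give, for each cytosine and strand, counts of methylated and of unmethylated calls and the deposited percent methylated, which equalled the share of the counts at every entry within 0.001 points. Only the counts were used, without normalization, and whether a minimum coverage was applied before deposit is not stated. No unassigned columns were left out. Positions outside CpGs of the reference (0.107% to 0.118% of listed cytosines in the 4 libraries) were left out, and strands were summed.

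Tiles of 100 kb on autosomes and X with at least 100 calls in each of the 9 control libraries entered a quasi-binomial model with a level per day over these libraries (R 4.3.3). The dispersion was moderated with limma 3.58.1, and the single day 6 library was assumed to vary like the others. For the test against tiles of like level, the mean level of tiles in the same 2-point bin of the control libraries of days 6, 9 and 11 was subtracted, and limma was used. Calls needed an adjusted p under 0.05 (Benjamini-Hochberg) and 5 points. Tests across tiles were tested on simulated data. Summaries used Python 3.11.15. Gene models were GENCODE models of NCBIM37; older symbols were matched through RefSeq synonyms. Intervals are 95% Clopper-Pearson and limits at 0 use 3 calls; both cover counting error only, as calls of a read or of PCR copies are not independent.

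The comparison, the gene lists and families, and the tests were chosen with earlier results of these data known. Named by rule were the 10 tiles with the lowest and the 10 with the highest level in control days 6 to 11, any called tiles (there were none), and the 3 starts per list with the most calls within 500 bp in the library with the fewest. Printed sequences are the 300 bases upstream of such starts, chosen for contrast in CpG content and level. A tile among those with the lowest p is not reported here.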

Additional observations from a re-analysis of the deposited data

Results flagged for a closer look

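The change from day 1 to day 3 differed between Dnmt1 KO and control in 23248 tiles, by the test of the difference described above.

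Calls at listed cytosines that are not in a CpG of the reference were not used in any comparison. In control, 8.31% of these calls were methylated in day 1 replicate 1 (95% Clopper-Pearson interval 7.75 to 8.91%, 8912 calls), 8.47% in day 1 replicate 2 (7.90 to 9.06%, 9057 calls), 7.49% in day 3 replicate 1 (6.96 to 8.05%, 9067 calls) and 8.10% in day 3 replicate 2 (7.54 to 8.68%, 8844 calls). In mitochondrial DNA, 0.228% to 0.288% of CpG calls were methylated in these libraries. In Dnmt1 KO the share was 7.64% and 7.83% at day 1 and 4.01% and 3.89% at day 3.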

How the results depend on the processing

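The number of tiles called at day 3 stayed at 0 under 15 of 16 alternatives for the quasi-binomial test and under 16 of 16 for the test relative to tiles of like level. These were coverage minimums of 50 and 200 calls, tiles of 50 and 200 kb, tiles of 1 Mb (added after the data were seen), other difference limits, leaving out cytosines over 20 calls or any library of days 1 and 3, only the 4 libraries, limma on levels, and other baselines. The other difference limits had to give 0, since no tile had an adjusted p under 0.05 in either main test. With the spread from all 18 libraries 1 tile was called, with a higher level at day 3; the cause was not tested. Over these settings 81 to 1945 and 166 to 1635 tiles had an unadjusted p under 0.05. A replicate block called 0 tiles in either test (1360 and 1322 at an unadjusted p under 0.05). Relative to tiles of like level, same-numbered libraries did not deviate together tile by tile (correlations of -0.00692 to 0.0153 between days). A shift of a whole library is taken out of this measure, so it cannot tell whether the numbers pair the libraries. The autosomal difference was -0.47 points with the replicate block as without it. It ran from -1.76 to 0.815 points when 1 library was left out, where only the value without day 1 replicate 1 was above 0. The difference between Dnmt1 KO and control was called in 14430 of 14442 tiles at a minimum of 200 calls, since fewer tiles were tested. Class taken from the pooled day 1 libraries gave 1.15 points under 50% and -6.81 points at 90% or more. With CpGs counted within 500 bp, the densest class changed by -0.34 points, that of 30 to 39 CpGs by -1.14 and that of 25 to 29 by -0.0395 (-0.193 within 100 bp), since each class then holds other CpGs. The median standard error of a tile was 3.46 points, 3.51 and 3.34 points at minimums of 50 and 200 calls, which keep other sets of tiles, and 4.201, 2.71 and 1.64 points in tiles of 50 kb, 200 kb and 1 Mb.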
